A study of Saccharomyces cerevisiae with 24 samples.

Results

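The data described here are the ribosome footprints of wild-type budding yeast after a shift to 37 °C, set against the footprints of unstressed cells at 30 °C. Ribosome profiling sequences the mRNA fragments that ribosomes shield from nuclease, so the count of a gene reflects how many ribosomes were on its transcripts. The genes were chosen as those with counts above 0 in wild type, which held for 5124 of the 5211 genes in the deposited count table. All 5124 were above 0 in each of the 12 wild-type libraries, and the other 87 were at 0 in all of them. No gene was at 0 in only some wild-type libraries, so a gene silent only in unstressed cells could not be seen here. Whether the table was filtered before deposit was not tested. The series holds 24 libraries from 2 genotypes, wild type and a deletion of ZUO1, and 2 assays, footprints and poly(A) mRNA, with 2 biological replicates per group. The heat group and the unstressed group of wild type therefore have 2 footprint libraries each, and wild-type cells treated with H2O2 supply 2 more.

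All groups were strain BY4741 grown at 30 °C in synthetic complete medium with 2% glucose to an optical density of 0.6. For heat, fresh medium at 44 °C was added in equal volume to bring the culture to 37 °C for 45 min, so heated cells were also diluted and given fresh medium, and the parts of temperature and medium cannot be told apart. For H2O2, cells were held at 0.25 mM for 30 min. Unstressed cells were taken before stress. Cycloheximide, which halts elongating ribosomes, was present in the footprint lysis buffer at 100 µg/mL. Footprint totals were 2218964 and 6293584 counts in heat replicates 1 and 2, and 1686930 and 1788399 counts in unstressed replicates 1 and 2. The median count per gene was 114 and 343 in the heat libraries and 68 and 73 in the unstressed libraries, so a gene of middling abundance carried a larger counting error in unstressed cells. The 7 a-cell genes checked held 2484 and 6167 counts in heat and 2930 and 2974 counts unstressed, and the alpha-cell gene STE3 held 20 and 55 counts in heat and 6 and 7 counts unstressed. Counts are relative to the library, so neither assay shows whether total translation or total mRNA per cell changed.

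Yeast meets a rise in temperature with several programmes that overlap. The transcription factor Hsf1 controls chaperone genes, Msn2 and Msn4 control a broad set of general stress genes, and the cell wall integrity pathway, a MAP kinase cascade ending in Slt2 and the factor Rlm1, controls wall synthesis and repair. In the same period cells are known to lower the expression of ribosomal protein genes and of other parts of the translation machinery. At 37 °C, a mild heat shock for this species, growth continues.

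Several chaperones, cell wall genes and general stress genes gained footprints in heated cells, while many genes for ribosomal proteins, translation factors and ribosome-associated chaperones lost them. Of 5042 genes with enough counts to test, 787 passed (15.6% of those tested, edgeR quasi-likelihood test, Benjamini-Hochberg adjusted p under 0.05). Of these, 294 rose (5.83%) and 493 fell (9.78%). Among genes that passed, the rises were fewer and larger: 142 exceeded 2-fold and 40 exceeded 4-fold, against 100 and 8 among the falls. The smallest change that passed was 0.36 for rises and 0.23 for falls on the log2 scale. The part of this detection limit in the sizes was not tested. Heat and unstressed libraries did not overlap for 2822 of the 5042 genes (56%), so an absence of overlap alone says little about a gene. Genes that fell were abundant, with a median of 496 CPM (counts per 1000000 of a library total scaled by the trimmed mean of M-values) in unstressed cells, and 367 CPM when ribosomal protein genes were left out. Genes that rose had a median of 39.5 CPM unstressed, close to the 40.8 CPM of genes that did not pass. In heat the medians were 74.0 CPM for rises, 304 CPM for falls and 43.2 CPM for genes that did not pass. The calls were made from these same levels. The direction split and the sizes of change depend on scaling. With library totals alone in place of trimmed means, 960 genes rose and 237 fell, because the median of all genes moved by 0.29 on the log2 scale, and 531 of the 787 genes passed under both. Of 60 amino acid synthesis genes, 6 rose and 24 fell with trimmed means, against 14 and 12 on library totals alone. Without heat replicate 2, the deepest of these 4 libraries, 134 genes rose and 273 fell. Changes below are relative to the trimmed-mean scale.

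**Figure D1:**
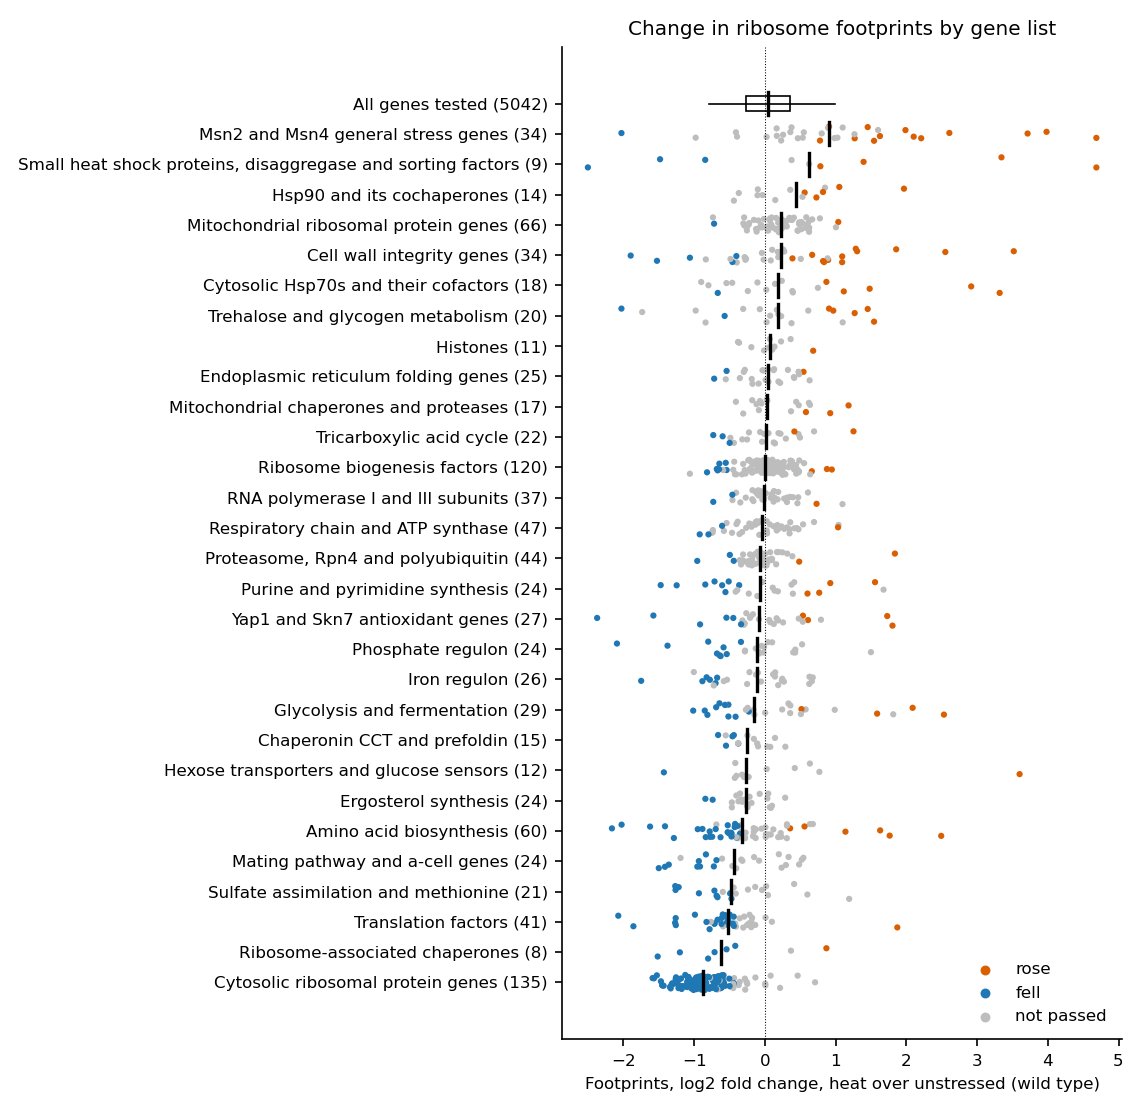
Footprint change (log2 fold change, heat over unstressed) of every tested gene in 29 lists, with the list size in brackets, black bars at list medians, and a box for the quartiles of all 5042 genes with whiskers at the 5th and 95th percentiles. Orange genes rose, blue genes fell and grey genes did not pass. General stress genes have the highest median (0.90) and cytosolic ribosomal protein genes the lowest (-0.87). On library totals alone, the medians of 11 lists that lie below 0 here lie above 0.

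The largest rise was that of HBT1 (YDL223C, chromosome IV, 57265 to 60405, R64 coordinates), which encodes a protein needed for polarised cell shape during mating. It had 98.0 and 101 CPM in heated cells and 3.40 and 1.89 CPM in unstressed cells, a log2 fold change of 5.24 ± 0.29 (SE, n = 2 libraries per group, adjusted p = 3.65e-06). Its unstressed libraries held 5 and 3 counts, and the ratio of pooled counts was 38.4 with an exact 95% interval of 19.4 to 89.1, which covers counting error only. HSP12, a small membrane-stabilising stress protein (chromosome VI, 107256 to 107585), had 617 and 574 CPM in heat against 40.8 and 6.31 CPM unstressed (4.69 ± 0.43, adjusted p = 6.63e-05). The heat libraries agreed closely for HSP12, while the unstressed libraries stood several-fold apart.

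YOR338W, a gene without a standard name, had 51.3 and 95.1 CPM in heat against 2.04 and 4.42 CPM unstressed, with 3 and 7 unstressed counts and a pooled ratio of 25.7 (exact 95% interval 13.9 to 53.8). NQM1, a transaldolase paralog, had 50.5 and 35.2 CPM in heat against 4.76 and 0.631 CPM unstressed, where 7 and 1 counts gave a pooled ratio of 14.9 (7.5 to 34.9). For HSP30, a plasma membrane protein that restrains the proton pump, the levels were 50.1 and 30.9 CPM in heat against 3.40 and 2.52 CPM unstressed. HXT5, a hexose transporter made in slow-growing cells, had 20.5 and 19.9 CPM in heat against 2.04 and 1.26 CPM unstressed, from 3 and 2 counts (pooled ratio 12.2, interval 5.16 to 38.2). The intervals are wide where unstressed counts are few, as they are for NQM1 and HXT5.

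The remaining members of the 15 largest rises were GSC2, HSP26, SSA4 and GCN4, which are described with their groups, and NCA3, GND2, BNA2, SRL3 and VID24. BNA2, the first enzyme of NAD synthesis from tryptophan, had 38.5 and 40.6 CPM in heat against 6.80 and 6.31 CPM unstressed (2.60 ± 0.33, adjusted p = 0.000446). Its annotated range overlaps YJR079W by 17 bases. VID24, which marks gluconeogenic enzymes for degradation as part of a ubiquitin ligase, had 76.2 and 126 CPM in heat against 19.0 and 16.4 CPM unstressed (2.54 ± 0.28, adjusted p = 0.0002). NCA3 rose by 2.75 ± 0.32, and GND2, a minor 6-phosphogluconate dehydrogenase, by 2.61 ± 0.40 on the log2 scale (adjusted p = 0.000293 and 0.00139). These 4 genes were low in unstressed cells, at 2.72 to 19.0 CPM per library.

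Among the falls, the largest passed less firmly than many smaller ones. BTN2, which gathers misfolded proteins for disaggregation, had 15.4 and 7.25 CPM in heat against 90.4 and 25.2 CPM unstressed (-2.50 ± 0.54, adjusted p = 0.011). Both groups were spread widely, and the call was lost without unstressed replicate 1 (-1.33, adjusted p = 0.0832) and without heat replicate 2 (-1.89, adjusted p = 0.123). YHB1, a flavohaemoglobin that detoxifies nitric oxide (chromosome VII, 959904 to 961103), had 193 and 228 CPM in heat against 1021 and 1167 CPM unstressed (-2.37 ± 0.13, adjusted p = 3.65e-06). QDR2, a multidrug and potassium transporter, had 14.1 and 14.2 CPM in heat against 76.8 and 67.5 CPM unstressed (-2.34 ± 0.19). For YHB1 and QDR2 the gap between groups was many times the difference between replicates.

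NCE103, carbonic anhydrase, had 27.4 and 17.8 CPM in heat against 82.2 and 51.1 CPM unstressed (-1.62 ± 0.27, adjusted p = 0.00272). GPX2, a glutathione peroxidase, had 46.2 and 44.7 CPM in heat against 151 and 119.9 CPM unstressed (-1.58 ± 0.15, adjusted p = 8.42e-05). GDH1, LEU1, ILV3, EFT1, EFT2, RPL9A, PHO11, ARN2, SRL1 and GSY1 complete the 15 largest falls and are given with their groups.

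**Figure D2:**
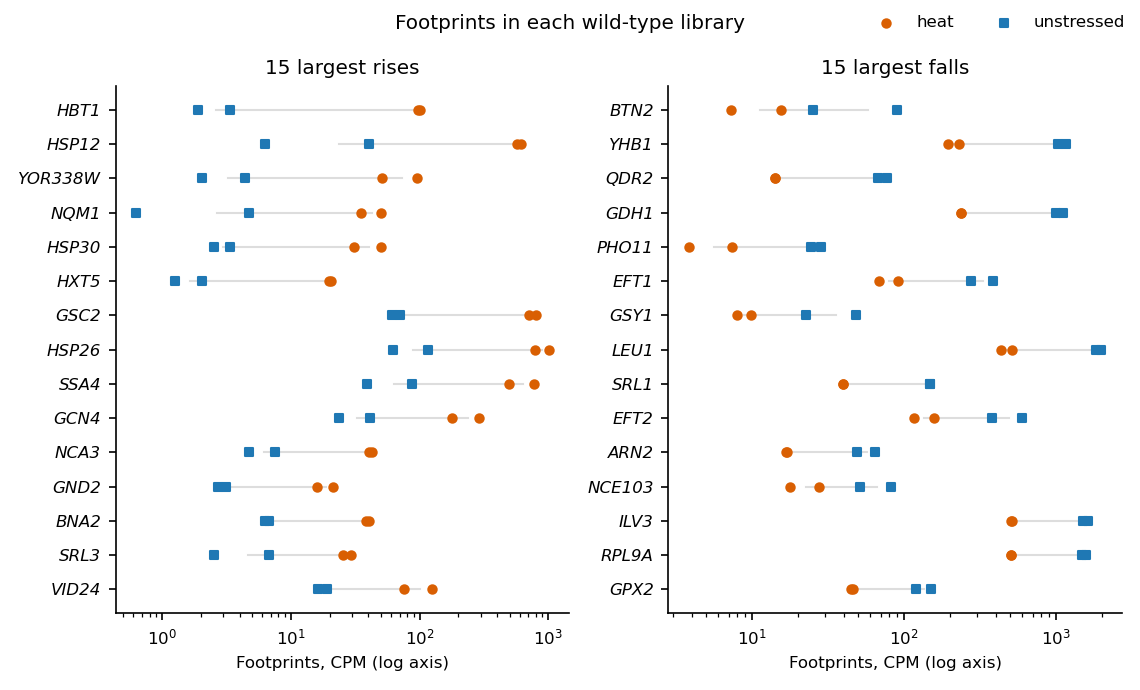
Footprint level (CPM, log axis) in each wild-type library for the 15 largest rises and the 15 largest falls among genes that passed, averaged at least 10 CPM and did not overlap between groups. Orange circles are heat libraries, blue squares unstressed libraries, and grey lines join group means. HBT1 shows the widest gap (98.0 and 101 CPM in heat, 3.40 and 1.89 CPM unstressed), and HSP12, NQM1 and BTN2 show unstressed libraries far apart.

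The cytosolic Hsp70s bind unfolded stretches of protein and release them on ATP exchange, helped by J-domain proteins and nucleotide exchange factors. Of the 18 tested genes of this system, 5 rose and 1 fell (median log2 fold change 0.19, against 0.04 for all genes tested), and on library totals alone 8 rose and none fell. SSA4, the strictly stress-induced Hsp70 (chromosome V, 364589 to 366517), had 771 and 492 CPM in heat against 87.7 and 39.1 CPM unstressed (3.32 ± 0.33, adjusted p = 0.000109). SSA3, its low-level relative, had 18.4 and 12.6 CPM in heat against 2.72 and 1.26 CPM unstressed, where 4 and 2 counts gave a pooled ratio of 7.17 (exact 95% interval 3.21 to 19.9). The main Hsp70, SSA1, had 7820 and 5196 CPM in heat against 2725 and 1936 CPM unstressed (1.48 ± 0.20, adjusted p = 0.000634).

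SSA2, nearly identical to SSA1 in sequence, had 4779 and 3838 CPM in heat against 4307 and 4191 CPM unstressed (0.02 ± 0.11, adjusted p = 0.924). The SSA2 groups overlapped, and reads shared by SSA1 and SSA2 may have been divided between the copies or dropped in counting. The exchange factor SSE2 had 233 and 175 CPM in heat against 121 and 66.9 CPM unstressed (1.12 ± 0.25), while its abundant paralog SSE1 had 5141 and 4246 CPM in heat against 4057 and 3897 CPM unstressed and did not pass (adjusted p = 0.141). The J-domain proteins YDJ1 (-0.54 ± 0.18, adjusted p = 0.068) and SIS1 (0.14 ± 0.16, adjusted p = 0.588) did not pass. FES1, an exchange factor that releases misfolded clients, was the member that fell, with 69.3 and 61.6 CPM in heat against 108 and 98.4 CPM unstressed.

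Several of these calls rested on single libraries. SSE2 did not pass without heat replicate 1 (0.91, adjusted p = 0.0662). FES1 did not pass without unstressed replicate 1 (-0.61, adjusted p = 0.0738) or heat replicate 2 (-0.57, adjusted p = 0.157), nor with library totals alone (-0.37, adjusted p = 0.117). The remaining rise, of the ribosome biogenesis J-protein JJJ1 (0.87 ± 0.26, adjusted p = 0.0464), was lost when any library but unstressed replicate 2 was left out (adjusted p = 0.0811 to 0.237) and with RLE factors or no filter (adjusted p = 0.0521 in both). Without heat replicate 1, 3 genes of the Hsp70 list rose and 2 fell. With DESeq2, 4 rose and 3 fell, and with libraries of both genotypes 3 rose and none fell, where SSE2 and FES1 did not pass (adjusted p = 0.0887 and 0.0808).

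In the Hsp90 system, which matures kinases and other clients, 5 of 14 genes rose and none fell (median 0.45), and on library totals alone 8 rose. HSP82, the inducible Hsp90 (chromosome XVI, 96496 to 98625), had 8015 and 5833 CPM in heat against 2164 and 1380 CPM unstressed (1.97 ± 0.22, adjusted p = 0.000193). Its constitutive copy HSC82 had 8952 and 7652 CPM in heat against 7438 and 7563 CPM unstressed (0.15 ± 0.09, adjusted p = 0.336). The heat libraries of HSP82 lay far above the unstressed ones and those of HSC82 did not pass, with the same reservation on reads shared between copies. AHA1, which stimulates the Hsp90 ATPase, had 525 and 411 CPM in heat against 237 and 213 CPM unstressed (1.05 ± 0.16, adjusted p = 0.00136). CPR6, a prolyl isomerase of the complex, had 1197 and 980.1 CPM in heat against 725 and 506 CPM unstressed (0.82 ± 0.17, adjusted p = 0.00755). STI1, which links Hsp70 to Hsp90, stood just outside the threshold (0.53 ± 0.16, adjusted p = 0.0506).

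The other Hsp90 cofactors that rose were SGT1 (0.73 ± 0.19) and HCH1 (0.56 ± 0.15). HCH1 did not pass when any single library was left out (adjusted p = 0.0522 to 0.151). SGT1 did not pass without unstressed replicate 2, H2O2 replicate 2, heat replicate 1 or heat replicate 2 (adjusted p = 0.0504 to 0.13). Without unstressed replicate 2, H2O2 replicate 2 or heat replicate 1, or with libraries of both genotypes, 3 Hsp90 genes rose in place of 5, and in that last setting CPR6 did not pass (adjusted p = 0.0588).

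Small heat shock proteins hold unfolded proteins in aggregates, and Hsp104 extracts them again. In this list of 9, 4 genes rose and 3 fell (median 0.63). HSP26 (chromosome II, 382030 to 382674) had 1004 and 793 CPM in heat against 116 and 61.8 CPM unstressed (3.34 ± 0.26, adjusted p = 2.77e-05). HSP104, the disaggregase, had 3245 and 2011 CPM in heat against 1340 and 657 CPM unstressed (1.40 ± 0.29, adjusted p = 0.00941), and did not pass without heat replicate 1 (1.01, adjusted p = 0.0631) or with libraries of both genotypes (adjusted p = 0.0747). HSP42, the small heat shock protein active in unstressed cells, had 172 and 74.8 CPM in heat against 149.5 and 36.6 CPM unstressed, which overlap (0.38 ± 0.51, adjusted p = 0.666). HSP12, described above, and HSP31, a methylglyoxalase (0.78 ± 0.20, adjusted p = 0.0241), were the other rises.

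The 3 falls in this list were those of BTN2, its paralog CUR1 (-1.48 ± 0.39) and the co-activator MBF1 (-0.84 ± 0.17). The CUR1 call was lost on library totals alone (-1.18, adjusted p = 0.0516) and with libraries of both genotypes (adjusted p = 0.109). It was also lost from the groups compared alone (adjusted p = 0.0604). CUR1 did not pass when any single library other than unstressed replicate 2 was left out (adjusted p = 0.0566 to 0.288). MBF1 did not pass without heat replicate 2 (-0.67, adjusted p = 0.0618). HSP31 did not pass without unstressed replicate 2 (0.53, adjusted p = 0.133), H2O2 replicate 2 (adjusted p = 0.0541) or heat replicate 2 (adjusted p = 0.149), nor with both genotypes (adjusted p = 0.525), where 2 genes of the list rose and 2 fell. All 9 genes of this list were higher in unstressed replicate 1 than in replicate 2, by a median log2 ratio of 1.18, against 0.03 for all genes. The list's median was 1.42 without unstressed replicate 1 and 0.09 without unstressed replicate 2. The part of this replicate difference in the result was not tested.

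**Figure D3:**
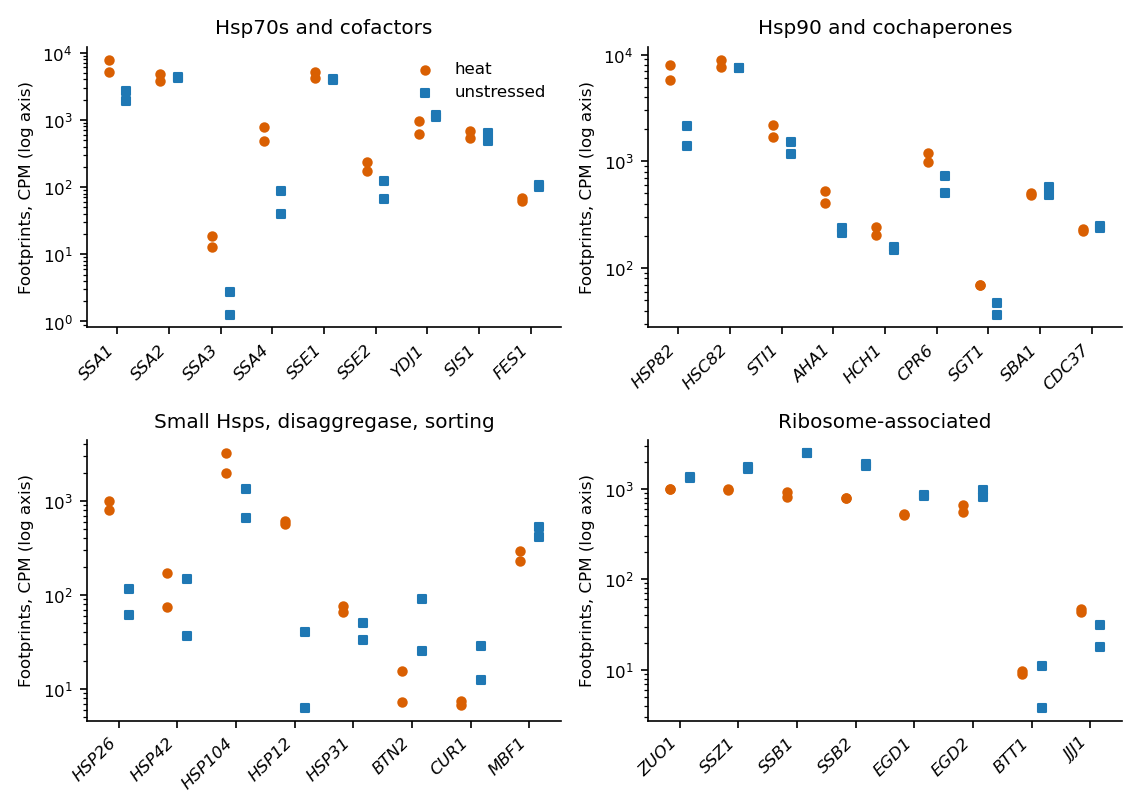
Footprint level (CPM, log axis) of chaperone genes in each wild-type library, with heat libraries as orange circles left of unstressed libraries as blue squares. SSA4, SSA3, HSP82, HSP26 and HSP12 stand clear of their unstressed values, SSA2 and HSC82 do not, and the ribosome-associated SSB1, SSB2, SSZ1 and EGD1 lie below theirs.

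In mitochondria, 3 of 17 chaperones and proteases rose and none fell (median 0.03; on library totals alone 0.32, with 7 rises; with both genotypes 1 rise). HSP60, the folding chamber of the matrix, had 3993 and 3471 CPM in heat against 2140 and 1794 CPM unstressed (0.92 ± 0.11, adjusted p = 0.000359). HSP78, the mitochondrial disaggregase, had 443 and 298 CPM in heat against 198 and 127 CPM unstressed (1.18 ± 0.24, adjusted p = 0.00753), and did not pass with both genotypes (adjusted p = 0.145). HSP10, the lid of the Hsp60 chamber, had 518 and 415 CPM in heat against 322 and 300.3 CPM unstressed (0.58 ± 0.15), and did not pass without unstressed replicate 2 (0.54, adjusted p = 0.0841) or heat replicate 1 (0.42, adjusted p = 0.136).

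Of 25 folding genes of the endoplasmic reticulum, 1 rose and 2 fell (median 0.04; on library totals alone 0.33, with 6 rises and 1 fall). KAR2, the Hsp70 of that compartment, had 2916 and 2235 CPM in heat against 2685 and 2043 CPM unstressed, with overlap (0.12 ± 0.16, adjusted p = 0.648). ERO1, the thiol oxidase, was the member that rose (0.55 ± 0.13, adjusted p = 0.0146), and did not pass when unstressed replicate 2 or heat replicate 1 or 2 was left out (adjusted p = 0.0606 to 0.0619). SEC63, a subunit of the translocon, fell by 0.72 ± 0.12 on the log2 scale. Of 15 genes for the chaperonin CCT, which folds actin and tubulin, and its partner prefoldin, none rose and 5 fell (median -0.25, which was 0.04 on library totals alone, where 1 rose and 1 fell). CCT7 had 216 and 210.1 CPM in heat against 342 and 331 CPM unstressed (-0.66 ± 0.12, adjusted p = 0.00428). Between 1 and 3 genes of this list fell when 1 library was left out.

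Of 44 genes for the proteasome and ubiquitin, 2 rose and 3 fell (median -0.07; on library totals alone 0.22, with 10 rises and 1 fall; 1 or 2 rises and 0 to 2 falls with 1 library left out). UBI4, the stress-induced polyubiquitin gene, had 786 and 544 CPM in heat against 228 and 144 CPM unstressed (1.84 ± 0.22, adjusted p = 0.000302). RPN4, the transcription factor of proteasome genes, had 34.2 and 29.9 CPM in heat against 73.4 and 49.8 CPM unstressed (-0.96 ± 0.22, adjusted p = 0.0134). The RPN4 call was lost without unstressed replicate 1 (-0.66, adjusted p = 0.0933) and heat replicate 2 (-0.84, adjusted p = 0.113).

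Genes of the general stress response, which Msn2 and Msn4 activate through a short promoter element, had the highest median of the 29 lists. Of 40 listed genes 35 were above 0 in wild type, and the response of the others, at 0 in all wild-type libraries, could not be described. Of the 34 tested, 13 rose and 1 fell (median 0.90), and on library totals alone 21 rose and 1 fell. HSP12, NQM1, HSP30 and GND2, given above, were its largest rises. Unstressed replicate 1 was higher than replicate 2 in 33 of these 34 genes, by a median log2 ratio of 1.16, and heat replicate 1 was higher than replicate 2 in 29 of 34, by 0.38. Without unstressed replicate 1, 23 genes rose, none fell and the median was 1.59. Without unstressed replicate 2, 11 rose, 2 fell and the median was 0.37. Without heat replicate 1, 8 rose and 1 fell, and with libraries of both genotypes 5 rose and none fell. The direction of the list median was the same in each case, and the part of the replicate difference in its size was not tested. The factors themselves did not pass: HSF1 stood at 0.58 ± 0.18 (adjusted p = 0.0567), MSN2 at 0.43 ± 0.18 (adjusted p = 0.149) and MSN4 at -0.09 ± 0.18 (adjusted p = 0.771, and 0.20 on library totals alone).

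Trehalose protects proteins in heat and glycogen stores glucose. Of 20 genes for both, 5 rose and 2 fell (median 0.18). TSL1, a subunit of trehalose synthase, had 575 and 404 CPM in heat against 274 and 83.9 CPM unstressed (1.45 ± 0.38, adjusted p = 0.0278). GDB1, the glycogen debranching enzyme, had 113 and 111 CPM in heat against 61.2 and 16.4 CPM unstressed (1.54 ± 0.37), and GPH1, glycogen phosphorylase, had 198 and 142 CPM in heat against 102 and 38.5 CPM unstressed (1.27 ± 0.34). GSY1, a glycogen synthase, had 9.84 and 7.98 CPM in heat against 48.3 and 22.7 CPM unstressed (-2.03 ± 0.45, adjusted p = 0.0121). Unstressed replicate 1 was above replicate 2 in 18 of these 20 genes (median log2 ratio 0.74), and heat replicate 1 above replicate 2 in 19 of 20 (0.41).

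The calls of this list depended on the libraries and the tool, and the part of the replicate difference was not tested. With DESeq2, 2 genes rose and 3 fell, and TSL1, GDB1 and GPH1 did not pass (adjusted p = 0.148, 0.139 and 0.159). With libraries of both genotypes, none rose and none fell. Without unstressed replicate 2, 2 genes rose and 2 fell (median -0.12), and without heat replicate 1 none rose and 1 fell (median 0.01). With either of the H2O2 libraries left out, 3 rose and 1 fell, and without heat replicate 2, 3 rose and none fell. GSY1 did not pass without unstressed replicate 1 (-1.40, adjusted p = 0.0835) or heat replicate 2 (-1.84, adjusted p = 0.111). TSL1 did not pass when H2O2 replicate 1 or 2 or heat replicate 1 was left out (adjusted p = 0.0535 to 0.114). GDB1 did not pass when heat replicate 1 or 2 was left out (adjusted p = 0.0551 and 0.0684), nor GPH1 when unstressed replicate 2, H2O2 replicate 1 or 2 or heat replicate 1 was (adjusted p = 0.0504 to 0.12).

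Cell wall genes moved in both directions. Of 34 genes, 12 rose and 5 fell (median 0.22), and on library totals alone 18 rose and 3 fell. GSC2, the inducible subunit of glucan synthase, which makes the main fibre of the wall (chromosome VII, 548264 to 553951), had 707 and 797 CPM in heat against 61.2 and 70.0 CPM unstressed (3.52 ± 0.18, adjusted p = 3.65e-06). Replicates of GSC2 agreed closely in both groups. SRL3 had 29.1 and 25.5 CPM in heat against 6.80 and 2.52 CPM unstressed (2.55 ± 0.42, adjusted p = 0.00226). MTL1, a wall stress sensor, had 18.0 and 17.8 CPM in heat against 7.48 and 2.52 CPM unstressed (1.86 ± 0.42, adjusted p = 0.0132), and did not pass without unstressed replicate 2 (1.27, adjusted p = 0.0898) or heat replicate 2 (adjusted p = 0.0578).

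SRL1, a wall mannoprotein, was the member that fell most, with 39.8 and 39.7 CPM in heat against 149 and 148 CPM unstressed (-1.90 ± 0.23, adjusted p = 0.000389). A further 3 genes were chosen after their values were seen, for their place in the pathway. CRH1, which crosslinks chitin to glucan, had 939 and 1059 CPM in heat against 492 and 445 CPM unstressed (1.09 ± 0.12, adjusted p = 0.000196). RLM1, the transcription factor at the end of the cascade, had 51.3 and 46.0 CPM in heat against 13.6 and 25.2 CPM unstressed (1.30 ± 0.27, adjusted p = 0.00806). SLT2, the MAP kinase above it, had 102 and 78.2 CPM in heat against 59.1 and 53.0 CPM unstressed (0.67 ± 0.18, adjusted p = 0.0327), a call lost when any library but heat replicate 2 was left out (adjusted p = 0.0585 to 0.137). Leaving out 1 library gave 8 to 11 rises and 2 to 6 falls in this list.

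Of 29 genes of glycolysis and fermentation, 4 rose and 10 fell (median -0.15, which was 0.14 on library totals alone, where 11 rose and 6 fell). Without unstressed replicate 1, 8 rose and 7 fell. TDH1, the glyceraldehyde-3-phosphate dehydrogenase used in slow growth, had 1512 and 1240 CPM in heat against 311 and 165 CPM unstressed (2.53 ± 0.23, adjusted p = 6.6e-05). GPM2, a minor phosphoglycerate mutase paralog, had 74.0 and 59.2 CPM in heat against 23.1 and 8.20 CPM unstressed (2.09 ± 0.37, adjusted p = 0.00326). GPP2, which completes glycerol synthesis, had 526 and 437 CPM in heat against 185 and 136 CPM unstressed (1.59 ± 0.16, adjusted p = 0.00013). HXK2, the main hexokinase, had 2220 and 1866 CPM in heat against 4196 and 4049 CPM unstressed (-1.01 ± 0.10, adjusted p = 0.000113).

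For 3 abundant genes chosen after their values were seen, the change was as follows. CDC19, pyruvate kinase, had 18814 and 16822 CPM in heat against 31819 and 30781 CPM unstressed (-0.81 ± 0.07, adjusted p = 6.4e-05). ENO2, enolase, had 15340 and 12589 CPM in heat against 22493 and 22535 CPM unstressed (-0.69 ± 0.09). TDH2, near-identical to other copies in sequence, had 3269 and 2576 CPM in heat against 4150 and 3637 CPM unstressed (-0.41 ± 0.12, adjusted p = 0.0384), and did not pass on library totals alone (-0.13, adjusted p = 0.391) or when any library but unstressed replicate 2 or heat replicate 1 was left out (adjusted p = 0.0716 to 0.199).

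Among 12 hexose transporters and glucose sensors, 1 rose and 1 fell (median -0.26, and 0.03 on library totals alone, where 3 rose and 1 fell). HXT5 was the rise given above. HXT2, a high-affinity transporter, had 356 and 258 CPM in heat against 732 and 912 CPM unstressed (-1.43 ± 0.17, adjusted p = 0.000328). Of 47 genes of the respiratory chain and ATP synthase, 1 rose and 3 fell (median -0.05; on library totals alone 0.25, with 5 rises and 1 fall), with ATP2, a subunit of the synthase, at 619 and 547 CPM in heat against 1132 and 1074 CPM unstressed (-0.92 ± 0.11, adjusted p = 0.000271). In the tricarboxylic acid cycle 2 of 22 genes rose and 3 fell, and with 1 library left out 1 or 2 rose and 1 to 3 fell, while on library totals alone 7 rose and 1 fell (median 0.31, against 0.02). PYC1, pyruvate carboxylase, which feeds the cycle, had 732 and 701 CPM in heat against 344 and 257 CPM unstressed (1.25 ± 0.14, adjusted p = 0.000233).

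Of 60 genes of amino acid synthesis, 6 rose and 24 fell (median -0.32, and -0.03 on library totals alone, where 14 rose and 12 fell). Without heat replicate 2, 4 rose and 12 fell, and with libraries of both genotypes 4 rose and 15 fell. GDH1, which fixes ammonium into glutamate (chromosome XV, 1041678 to 1043042), had 238 and 235 CPM in heat against 1115 and 1004 CPM unstressed (-2.16 ± 0.11, adjusted p = 3.65e-06). LEU1, of leucine synthesis (chromosome VII, 476313 to 478652), had 509.6 and 431 CPM in heat against 1984 and 1840 CPM unstressed (-2.03 ± 0.12, adjusted p = 4.27e-06). ILV3, shared by isoleucine, leucine and valine synthesis, had 509 and 503 CPM in heat against 1610 and 1508 CPM unstressed (-1.62 ± 0.10, adjusted p = 8.13e-06). In all 3 genes the replicates agreed closely and the groups were far apart. ILV5 and BAT1 of the same branched-chain pathway, chosen after their values were seen, stood at -1.29 ± 0.09 and -1.41 ± 0.13.

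ARG3, ornithine carbamoyltransferase, had 21.8 and 22.5 CPM in heat against 3.40 and 4.42 CPM unstressed (2.49 ± 0.38, adjusted p = 0.00139). ARG8, acetylornithine aminotransferase, had 30.8 and 35.5 CPM in heat against 12.2 and 7.57 CPM unstressed (1.76 ± 0.30, adjusted p = 0.00289). CPA1, a subunit of carbamoyl phosphate synthetase, and ARG1, argininosuccinate synthetase, were chosen after their values were seen. CPA1 had 133 and 152 CPM in heat against 32.6 and 59.3 CPM unstressed (1.63 ± 0.27, adjusted p = 0.00267). For ARG1 the levels were 144 and 163 CPM in heat against 68.0 and 71.9 CPM unstressed (1.14 ± 0.19, adjusted p = 0.0022).

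GCN4 encodes the transcription factor that activates amino acid synthesis genes, and its own translation is held low in growing cells by short reading frames in its leader. GCN4 (YEL009C, chromosome V, 138918 to 139763) had 179.7 and 292 CPM of footprints in heat against 23.8 and 41.0 CPM unstressed (2.87 ± 0.30, adjusted p = 0.00013). Its mRNA level was 116 and 140 CPM in heat against 295 and 638 CPM unstressed (-1.87 ± 0.48, adjusted p = 0.0823, not passed). The footprint and mRNA values thus lay on opposite sides of 0, with no overlap between groups in either assay. The deposited table gives 1 count per gene, so footprints on the leader and on the coding sequence could not be separated here.

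Of 21 genes of sulfate assimilation and methionine synthesis, none rose and 9 fell (median -0.47; 2 rose and 5 fell on library totals alone, and 6 or 7 fell with 1 library left out). SAM1, which makes S-adenosylmethionine, had 536 and 510.2 CPM in heat against 1167 and 1268 CPM unstressed (-1.22 ± 0.11, adjusted p = 5e-05). MMP1, an S-methylmethionine permease, had 21.0 and 18.6 CPM in heat against 41.5 and 52.4 CPM unstressed (-1.27 ± 0.23).

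Of 24 purine and pyrimidine genes, 4 rose and 8 fell (median -0.07; on library totals alone 0.22, with 8 rises and 3 falls; without heat replicate 2, 4 rises and 4 falls). IMD2, an IMP dehydrogenase, had 34.2 and 37.6 CPM in heat against 92.4 and 109 CPM unstressed (-1.47 ± 0.16, adjusted p = 0.000202). IMD4, of the same enzyme family, had 288 and 229 CPM in heat against 514 and 709 CPM unstressed (-1.25 ± 0.17). Reads shared by these similar copies may have been divided between them or dropped. MTD1, which supplies one-carbon units, had 321 and 229 CPM in heat against 87.0 and 98.4 CPM unstressed (1.56 ± 0.18, adjusted p = 0.00031). SHM2, serine hydroxymethyltransferase, had 3118 and 2415 CPM in heat against 1494 and 1420 CPM unstressed (0.92 ± 0.12, adjusted p = 0.000625).

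Of 135 genes for cytosolic ribosomal proteins, 114 fell and none rose, and 129 had a log2 fold change below 0 (median -0.87; on library totals alone -0.58, with 92 falls and 1 rise). When 1 library was left out, 103 to 111 fell. RPL9A had 504 and 508 CPM in heat against 1573 and 1471 CPM unstressed (-1.59 ± 0.10, adjusted p = 8.82e-06). RPS12 had 847 and 597 CPM in heat against 2314 and 1958 CPM unstressed (-1.57 ± 0.17, adjusted p = 0.000193). RPL1A had 107 and 89.6 CPM in heat against 226 and 334 CPM unstressed (-1.53 ± 0.20), and RPS9B had 1010 and 1071 CPM in heat against 2672 and 3096 CPM unstressed (-1.47 ± 0.10). Most of these genes come in pairs of near-identical copies, so the division between copies is uncertain. The summed share of the group, given below, does not depend on that division. It would change if reads shared by copies were dropped or counted more than once, and how they were handled is not given. Mitochondrial ribosomal protein genes had 1 rise and 1 fall among 66 (median 0.23; 18 rises on library totals alone). Whether the cytosolic and mitochondrial groups differ was not tested.

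Of 41 genes for translation factors, 24 fell and 1 rose (median -0.53; on library totals alone -0.23, with 12 falls and 1 rise). YEF3, the fungal elongation factor that clears the exit site, had 6941 and 6540 CPM in heat against 16386 and 16112 CPM unstressed (-1.27 ± 0.07, adjusted p = 3.65e-06). EFT1 and EFT2, near-identical genes for elongation factor eEF2, had 90.7 and 68.7 CPM and 157 and 115 CPM in heat against 385 and 277 CPM and 599 and 378 CPM unstressed. Their log2 fold changes were -2.07 ± 0.20 and -1.86 ± 0.22 (adjusted p = 9.78e-05 and 0.000326). Reads shared by EFT1 and EFT2 may have been divided or dropped in counting, so their levels are uncertain. HEF3, a paralog of YEF3 that is scarcely used in growing cells, was the rise, at 5.99 and 6.09 CPM in heat against 1.36 and 1.89 CPM unstressed. With 2 and 3 unstressed counts its pooled ratio was 3.71 (exact 95% interval 1.5 to 11.9), and its call (adjusted p = 0.0476) was lost when any single library was left out (adjusted p = 0.0783 to 0.22).

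Of 8 genes for chaperones that work at the ribosome, 6 fell and 1, JJJ1, rose (median -0.63; on library totals alone -0.34, with 4 falls and 1 rise). SSB1 and SSB2, near-identical Hsp70s that bind nascent chains, had 815 and 916 CPM and 791 and 801 CPM in heat against 2464 and 2489 CPM and 1865 and 1798 CPM unstressed. Their log2 fold changes were -1.52 ± 0.11 and -1.20 ± 0.10 (adjusted p = 1.78e-05 and 4.27e-05). SSZ1, an Hsp70-like partner, had 963 and 982 CPM in heat against 1649 and 1745 CPM unstressed (-0.80 ± 0.11, adjusted p = 0.000567). EGD1, of the nascent polypeptide-associated complex, had 508 and 522 CPM in heat against 856 and 832 CPM unstressed (-0.71 ± 0.10).

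ZUO1, the J-protein deleted in the other genotype of the series, was chosen for that reason and had 998 and 1007 CPM in heat against 1350 and 1331 CPM unstressed (-0.42 ± 0.09, adjusted p = 0.0132). The ZUO1 call was lost on library totals alone (-0.13, adjusted p = 0.309) and when unstressed replicate 1 or 2 or heat replicate 2 was left out (adjusted p = 0.05 to 0.053). Between 4 and 6 genes of this list fell when 1 library was left out.

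Of 120 ribosome biogenesis genes, whose products assemble ribosomes, 3 rose and 7 fell, with a median of 0.01, and on library totals alone 10 rose and 2 fell. NOP56, a core protein of box C/D small nucleolar ribonucleoproteins, had 559.7 and 638 CPM in heat against 983 and 1131 CPM unstressed (-0.82 ± 0.12, adjusted p = 0.0012). Only 1 of the 120 genes was higher in unstressed replicate 1 than in replicate 2 (median log2 ratio -0.56). Without unstressed replicate 1, none rose and 14 fell (median -0.23), and without unstressed replicate 2, 19 rose and 2 fell (median 0.33). The direction of this list therefore turned with the unstressed library used.

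**Figure D4:**
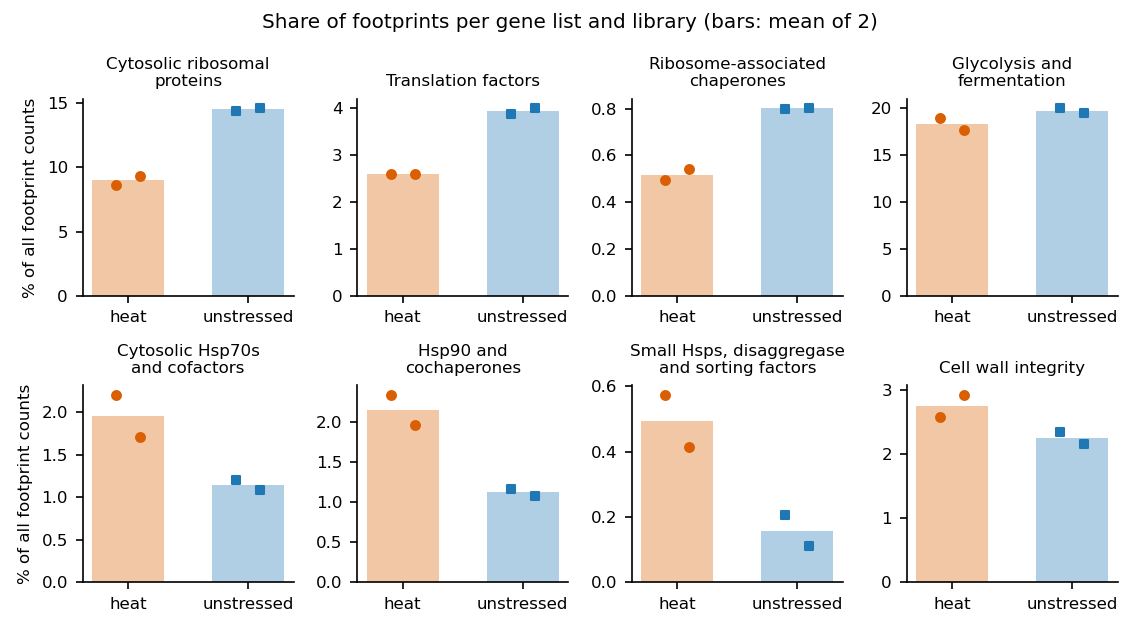
Percentage of all footprint counts held by 8 gene lists in each wild-type library, with bars at the mean of 2 heat (orange) and 2 unstressed (blue) libraries. Cytosolic ribosomal protein genes held 8.64% and 9.30% in heat against 14.4% and 14.6% unstressed, and Hsp90 genes 2.34% and 1.96% in heat against 1.17% and 1.08% unstressed.

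As shares of all footprint counts, which need no scaling factor, cytosolic ribosomal protein genes held 8.64% and 9.30% in heat and 14.4% and 14.6% in unstressed cells. Translation factors held 2.59% and 2.60% in heat against 3.88% and 4.0% unstressed, and ribosome-associated chaperones 0.493% and 0.542% in heat against 0.801% and 0.802% unstressed. The Hsp70 list held 2.20% and 1.71% in heat against 1.20% and 1.09% unstressed. The list of small heat shock proteins, disaggregase and sorting factors held 0.574% and 0.415% in heat against 0.206% and 0.111% unstressed. Glycolysis and fermentation, the largest of these shares, held 18.9% and 17.7% in heat against 19.9% and 19.4% unstressed. In each of these 6 lists the heat and unstressed libraries did not overlap. The same held for most of the 29 lists with at least 8 genes, so it says little about these 6. For glycolysis the heat replicates stood further apart than the nearest heat and unstressed libraries. With 2 libraries against 2, a two-sided exact permutation test cannot give a p below 0.333, so these shares were not tested.

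In the phosphate regulon, none of 24 genes rose and 9 fell (median -0.11; on library totals alone 0.18, with 1 rise and 4 falls). PHO11 and PHO12, near-identical secreted acid phosphatases, had 3.85 and 7.40 CPM and 27.4 and 35.4 CPM in heat against 24.5 and 28.4 CPM and 86.3 and 80.8 CPM unstressed. Their log2 fold changes were -2.09 ± 0.43 and -1.38 ± 0.23 (adjusted p = 0.00789 and 0.00272). VTC3, which makes vacuolar polyphosphate, had 708 and 593 CPM in heat against 1040 and 1223 CPM unstressed (-0.80 ± 0.13).

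In the iron regulon, none of 26 genes rose and 6 fell (median -0.11; on library totals alone 0.18, with 3 rises and 3 falls; without heat replicate 2, 2 falls; without heat replicate 1, 1 rise and 3 falls; with both genotypes, 3 falls). ARN2, a siderophore transporter, had 16.7 and 17 CPM in heat against 48.9 and 64.4 CPM unstressed (-1.75 ± 0.25, adjusted p = 0.00105, and 0.222 with both genotypes), and FET3, the ferroxidase of high-affinity uptake, had 609.7 and 687 CPM in heat against 1100 and 1198 CPM unstressed (-0.82 ± 0.13, adjusted p = 0.00137). In the mating list, none of 24 genes rose and 9 fell (median -0.43; on library totals alone 5 rose and 6 fell). STE2, the receptor for alpha-factor, had 279.8 and 210.0 CPM in heat against 664 and 633 CPM unstressed (-1.41 ± 0.14, adjusted p = 0.000117). SST2, which shuts off the pheromone signal, had 71.5 and 60.0 CPM in heat against 169 and 199 CPM unstressed (-1.50 ± 0.16), FAR1, which arrests the cycle for mating, 82.6 and 63.7 CPM in heat against 207 and 163 CPM unstressed, and GPA1, the G protein alpha subunit, 130.1 and 101 CPM in heat against 226 and 218 CPM unstressed. Leaving out 1 library gave 6 to 9 falls in the mating list.

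Antioxidant genes under Yap1 and Skn7 were split, with 4 rises and 6 falls among 27 (median -0.08; on library totals alone 0.21, with 8 rises and 3 falls; 2 to 5 rises and 3 to 6 falls with 1 library left out; 0 rises and 2 falls with both genotypes). TSA2, a minor peroxiredoxin, had 50.1 and 58.4 CPM in heat against 15 and 16.4 CPM unstressed (1.80 ± 0.17, adjusted p = 7.14e-05), and did not pass with both genotypes (adjusted p = 0.509). YHB1 and GPX2, given above, were its largest falls. In the sterol pathway, 2 of 24 genes fell and none rose (median -0.27, and 0.02 on library totals alone, where 1 rose and 2 fell), namely ERG13, HMG-CoA synthase (-0.84 ± 0.16), and ERG6, of the late pathway (-0.74 ± 0.12). Among 11 histone genes 1 rose, and among 37 subunits of RNA polymerases I and III 1 rose and 2 fell, a pair of counts that ran from 3 and 0 without unstressed replicate 2 to 0 and 4 without unstressed replicate 1 and stood at 7 and 0 on library totals alone (median 0.28, against -0.01).

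In poly(A) mRNA of the same conditions, 26 of 5124 genes passed (0.507%), of which 19 rose and 7 fell, while an unadjusted p under 0.05 was reached by 1301 and DESeq2 gave 639 calls. The replicate spread was larger there, with a biological coefficient of variation of 0.313 for mRNA against 0.122 for footprints, and the count of mRNA calls depended strongly on the fit, so it does not show that mRNA changed less. The mRNA totals were 63994179 and 7810893 counts in heat replicates 1 and 2, and 122213415 and 110894606 unstressed. The 50 most abundant genes held 61.7% and 41.0% of these counts in heat and 56.6% and 48.4% unstressed. The part of depth and make-up in the mRNA values was not tested. Without mRNA unstressed replicate 1, 994 genes passed, and without unstressed replicate 2, 1 passed. The largest mRNA changes by the naming rule were the rises of HSP12 (5.21 ± 0.54), YOR338W (3.34 ± 0.41), BNA2 (3.33 ± 0.39), HSP26 (3.09 ± 0.40) and NCA3 (3.01 ± 0.45) and the falls of LEU1 (-3.56 ± 0.58), YHB1 (-3.38 ± 0.54), RPS30B (-2.64 ± 0.46), PHO11 (-2.41 ± 0.39) and IMD2 (-2.23 ± 0.42). HSP12 was the call kept without mRNA unstressed replicate 2, and the other 9 had adjusted p of 0.128 to 0.219 there. BNA2 and NCA3 also did not pass with libraries of both genotypes (adjusted p = 0.0542 and 0.067). On library totals alone, PHO11 and IMD2 did not pass (adjusted p = 0.116 and 0.112). IMD2 also lost its call without mRNA heat replicate 1 (-2.41) or replicate 2 (-2.07).

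The footprint and mRNA changes mostly had the same sign. Of the 294 genes whose footprints rose, 243 had an mRNA change above 0, and of the 493 that fell, 439 had one below 0. Among all 5042 genes tested in footprints, 2640 had an mRNA change above 0 and 2402 one below 0. Among the 15 largest footprint rises 14 had an mRNA change above 0 and 9 passed in mRNA, with GCN4 as the exception, and all 15 largest falls had one below 0, of which 3 passed. For cytosolic ribosomal protein genes the mRNA median was -1.52 with 133 of 135 below 0, although 2 fell by the test, against the footprint median of -0.87. Translation factors had an mRNA median of -0.98, amino acid synthesis genes -0.47 and general stress genes 0.65, beside 0.07 for all genes. These mRNA values shift by 0.46 on the log2 scale when library totals alone are used.

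Translational efficiency, the footprint change minus the mRNA change in 1 model of 12 wild-type libraries, passed for 2 of 5124 genes (0.039%), while 602 reached an unadjusted p under 0.05 and DESeq2 gave 11 calls. GCN4 had a difference of 4.54 (adjusted p = 0.00617) and HBT1 one of 4.23 (adjusted p = 0.00617). HBT1 mRNA was 35.1 and 40.0 CPM in heat against 26.4 and 15.2 CPM unstressed (0.85 ± 0.37, adjusted p = 0.174), so the mRNA of this gene did not pass while its footprints did. GCN4 did not pass on library totals alone (adjusted p = 0.064) or without footprint unstressed replicate 1 (4.43, adjusted p = 0.114), and HBT1 did not pass on library totals alone (adjusted p = 0.102) or without footprint unstressed replicate 2 (3.88, adjusted p = 0.177). Leaving out mRNA unstressed replicate 1 gave 883 calls. The ribosomal protein list had a median translational efficiency change of 0.40, beside -0.13 for all genes, and none of its members passed.

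**Figure D5:**
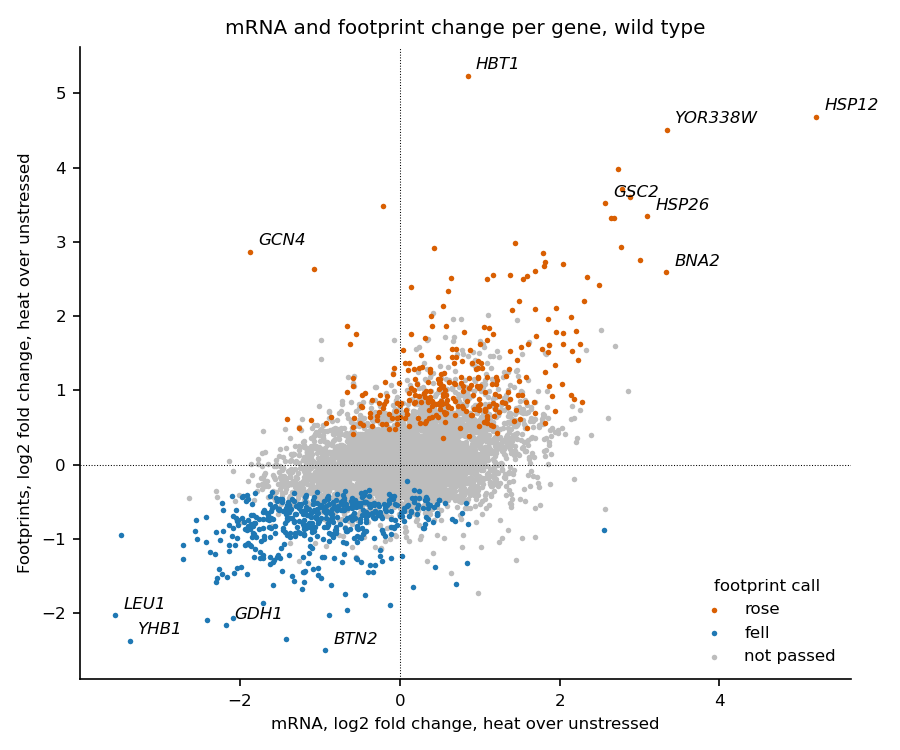
Change of each gene tested in footprints (y axis, log2 fold change, heat over unstressed) against its change in mRNA (x axis, log2 fold change), with genes whose footprints rose in orange, fell in blue and did not pass in grey. Most called genes lie in the lower left or upper right. GCN4 lies at upper left (-1.87 in mRNA, 2.87 in footprints) and HBT1 at the top (0.85 in mRNA, 5.24 in footprints).

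Heat was also set directly against H2O2, an oxidative stress, in the same fit. Footprints differed for 1189 of 5042 genes (23.6%), 570 higher in heat (11.3%) and 619 lower (12.3%). Without H2O2 replicate 1, 431 differed. By the naming rule, GSC2 led the genes higher in heat, with 707 and 797 CPM in heat against 76.6 and 58.0 CPM in H2O2 (3.51 ± 0.17, adjusted p = 5.01e-07). MCH5, a riboflavin transporter, had 65.0 and 86.6 CPM in heat against 7.36 and 10.3 CPM in H2O2 (3.04 ± 0.25, adjusted p = 2.74e-05). YOR338W was higher in heat by 2.54 ± 0.30, MTD1 by 2.21 ± 0.18 and ARG8 by 2.08 ± 0.25 on the log2 scale.

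In the other direction, TSA2 had 50.1 and 58.4 CPM in heat against 2556 and 2687 CPM in H2O2 (-5.58 ± 0.13, adjusted p = 2.83e-09). YML131W had 30.4 and 34.5 CPM in heat against 647 and 652 CPM in H2O2 (-4.30 ± 0.14), and YMR090W had 19.7 and 11.2 CPM in heat against 222 and 229 CPM in H2O2 (-3.99 ± 0.29). OSI1, induced by oxidants, had 0.428 and 3.34 CPM in heat, from 1 and 23 counts, against 213 and 207 CPM in H2O2. GTT2, a glutathione transferase, had 1.28 and 1.89 CPM in heat, from 3 and 13 counts, against 91.0 and 65.7 CPM in H2O2.

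By share of members called, the lists among the 29 that differed most between heat and H2O2 were the antioxidant and proteasome genes, with medians of -1.61 and -0.73 (general stress genes -1.21). In heat, 24 of 27 Yap1 and Skn7 genes, 39 of 44 proteasome genes and 18 of 26 iron genes were lower than in H2O2, with 0, 0 and 2 higher. General stress genes were lower in heat for 23 of 34 and trehalose and glycogen genes for 14 of 20, with none higher in either list. In contrast, 66 of 120 ribosome biogenesis genes and 19 of 37 subunits of RNA polymerases I and III were higher in heat and none lower. The Hsp90 list had 8 of 14 genes higher in heat and 1 lower, the Hsp70 list 5 of 18 higher and 1 lower, and the cell wall list 9 of 34 higher and 2 lower. The list of small heat shock proteins, disaggregase and sorting factors had 1 of 9 higher and 4 lower (median -1.04). Mitochondrial chaperones and proteases had 2 of 17 higher and 4 lower. For ribosomal protein genes, 3 of 135 were higher in heat and 13 lower. Of 4 chaperone genes chosen for their rise above, HSP82 had 8015 and 5833 CPM in heat against 3333 and 2504 CPM in H2O2 (1.25 ± 0.21, adjusted p = 0.00247), and HSP26 had 1004 and 793 CPM in heat against 490 and 367 CPM in H2O2 (1.07 ± 0.23, adjusted p = 0.00759). SSA4 had 771 and 492 CPM in heat against 533 and 390 CPM in H2O2 (0.45 ± 0.28, adjusted p = 0.267), and HSP104 stood at -0.05 ± 0.29 (adjusted p = 0.929). The 2 stresses differed in duration, so these differences belong to 45 min of heat against 30 min of H2O2. Heated cells were also diluted with warm medium, and no such addition is recorded for H2O2 cells. The parts of stress, duration, dilution and new nutrients in these differences therefore cannot be told apart.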

How the data were processed

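The deposited table holds raw read counts per gene that the authors made from footprint and mRNA libraries, with no normalization. Per the submitters' processing notes, reads were handled with cutadapt, Bowtie2, HISAT2 and SAMtools on build R64. The sources used here give no versions, counting tool or strand setting, and reads from near-identical or overlapping genes cannot be told apart. Reads shared by near-identical copies may have been divided, dropped or counted more than once. The labels name no molecular identifiers. Of 5211 genes, 5198 matched RefSeq names (R64). The table's 3 emptied lines were left out, and 82 of the 5124 genes were removed by the low-count filter.

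Counts were tested with edgeR 4.0.16 (limma 3.58.1, R 4.3.3): trimmed mean of M-values, filterByExpr (minimum count 10, minimum total 15), and the quasi-likelihood F test with Benjamini-Hochberg adjustment over all genes tested. Footprints and mRNA were each fitted to 6 wild-type libraries, and translational efficiency was the assay by condition interaction over 12. The SE was taken as the size of the log2 fold change divided by the root of F. CPM are counts per 1000000 of the scaled library total. Intervals on pooled ratios are exact (Clopper-Pearson) and cover counting error only. P-values and SE rest on a spread estimated over all libraries in the fit, with 2 replicates per group, and moderated across genes. The H2O2 libraries therefore entered the spread used for heat against unstressed. In footprints, the SD of the log2 ratio between replicates was 0.39 in heat, 0.55 unstressed and 0.32 in H2O2. The code was tested on simulated counts. Alternatives were other scaling, no filter, DESeq2 1.42.0, other sets of libraries, a block for replicate number, and each library left out in turn.

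The members and gene lists were chosen with earlier results of these data known. Genes named are the 15 largest rises and falls that passed, averaged at least 10 CPM and did not overlap, up to 4 per list (any member for the first 4 folding lists), and 5 each way for mRNA and heat against H2O2. Genes named outside this rule (HSF1, MSN2, MSN4, SIS1, YDJ1, KAR2, ZUO1, UBI4, RPN4 and those so marked) were chosen after their values were seen. No sequences are printed.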

Additional observations from a re-analysis of the deposited data

How the results depend on the processing

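Footprint calls for heat against unstressed numbered 802 with RLE factors, 772 without the filter, 733 with DESeq2, 583 from the groups compared alone and 526 from libraries of both genotypes, and 577 to 671 when 1 library other than heat replicate 2 was left out. They moved past 1.5 times in 2 settings: 1197 on library totals alone, where the scale itself moves, and 407 without heat replicate 2, of which 392 were among the 787. Leave-one-out counts ran from 407 to 671. The mRNA calls numbered 26 without the filter and 35 with both genotypes, within 1.5 times of the 26 reported, and moved further in the other settings: 45 with RLE factors, 98 on library totals alone, 639 with DESeq2, 215 from the groups compared alone, and 1 to 994 with 1 library left out, so no count of mRNA calls is firm. For translational efficiency the counts were 0 on library totals alone, 11 with DESeq2 and 5 with both genotypes, and 1 to 883 with 1 library left out. Heat against H2O2 gave 746 calls with both genotypes and 431 to 1427 with 1 library left out. The cause of these differences was not tested. Of the 15 largest rises and 15 largest falls, all 30 kept their call with RLE factors, library totals alone, no filter, DESeq2 and the groups compared alone, and 26 kept it with both genotypes, where ARN2, GND2, GPX2 and GSY1 did not pass. Genes that had not passed changed sign in a few settings: with 1 library left out, HSP42 ran from -0.31 to 1.70, KAR2 from -0.078 to 0.33, SIS1 from -0.038 to 0.36 and SSA2 from -0.14 to 0.17, with each value below 0 from leaving out unstressed replicate 2 or heat replicate 1, while SSA2 was -0.000697 with DESeq2 and MSN4 0.20 on library totals alone. Of 116 genes followed one by one, 105 passed, and 8 of these lost the call with the groups compared alone, 5 with DESeq2 and 23 with both genotypes. The labels say that stressed and unstressed cells came from 1 culture but not that a replicate number marks it, so the numbers were not taken as pairs. Deviations of same-numbered libraries correlated at 0.12 (heat and unstressed), 0.27 (heat and H2O2) and 0.18 (H2O2 and unstressed). With the replicate block, calls numbered 1074 for footprints (all 787 among them), 895 for mRNA, 2 for translational efficiency and 1649 for heat against H2O2. Unstressed libraries had 68 and 73 counts per gene at the median, and genes below about 10 counts there have wide intervals.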
